A study of Mus musculus with 20 samples.

Results

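Horizontal cells are the inhibitory interneurons of the outer retina, and 55 of the 79009 deposited single cells of this series (0.0696%) carry that name. Membership was taken from the cell type that the authors deposited for each cell, over all 20 libraries, and all 55 cells form 1 cluster of the authors that holds no other cell. The series measured RNA in single cells of cultured retina from wild-type CD1 mice. Per the labels, explants were electroporated with a GFP control, MEIS1 or MEIS2 construct or an equal mix of both MEIS constructs, at the ages P2 (postnatal day 2) and P5, with 4 control libraries and 2 libraries of each construct group at each age. Per the series text, the plasmid was pCAGIG, which drives its insert and GFP from a ubiquitous promoter, and GFP-positive cells were isolated, so no group holds untouched retina. The labels do not say whether libraries came from separate animals, so p-values measure only the spread between these libraries, which may be technical. MEIS1 and MEIS2 are homeodomain transcription factors. The series text instead names NR2F1 and NR2F2 constructs and 2 or 5 days of treatment, and the treatment tags contradict the titles of P2 MEIS2 and P5 MEIS1 libraries. In the cell barcodes, P2 control 1 bears a combination library's name and P2 combination 2 a control's. Groups follow the titles here.

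In the mouse retina horizontal cells are born early, before most rods and bipolar cells. They share a progenitor state with amacrine cells that depends on Foxn4 and Ptf1a, and they then turn on Lhx1, Onecut1, Onecut2 and Prox1. Mature horizontal cells spread their processes among photoreceptor terminals, take up glutamate signals through ionotropic receptors, and space themselves in a regular mosaic for which the receptors Megf10 and Megf11 are known.

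The 55 cells were spread unevenly. P2 control libraries held 30 of them (16, 10, 3 and 1 in replicates 1 to 4), P2 libraries with a MEIS construct 11, P5 control libraries 9 (8, 1, 0 and 0) and P5 libraries with a MEIS construct 5. P2 control 1 and P2 control 2 together gave 26 cells, or 47.3%, and 14 of the 20 libraries held at least 1. The cells had a median of 4886 UMIs (unique molecular identifiers, each a counted RNA molecule), from 536 to 26288, a median of 2195 genes, and 422159 UMIs in all. No barcode of a horizontal cell occurred in another library, although 744 of 78261 barcodes of the series did. Libraries ranged from 1625 to 17739 cells and from 2376875 to 141540352 UMIs. The cell names follow the authors' clusters of these same cells, so differences in gene levels between horizontal cells and other types describe the cluster and were not tested.

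Of the 4 defining markers, Lhx1 and Onecut1 were at low levels in amacrine cells and rods, whereas Onecut2 was shared with amacrine cells and Calb1 with starburst amacrine cells. Lhx1, a LIM homeodomain factor needed for horizontal cells to take their place in the retina, had at least 1 UMI in 28 of 55 horizontal cells (50.9%, exact 95% interval 37.1 to 64.6) against 61 of 12454 amacrine cells of the same libraries (0.490%) and 54 of 30041 rods (0.180%). Median depths were 4886, 6122.5 and 4335 UMIs. Thinned to 2000 UMIs per cell, which left 49 horizontal and 11369 amacrine cells, the Lhx1 shares were 28.8% and 0.155%, so the difference was also present at equal depth. Onecut1, a cut homeodomain factor of early retinal neurons, was found in 13 cells (23.6%) and its relative Onecut3 in 23 cells (41.8%), against 1.20% and 0.209% of amacrine cells. Onecut2 was found in 39 horizontal cells (70.9%) but also in 52.6% of amacrine cells. Calb1, the calcium-binding protein calbindin, had a UMI in 16 horizontal cells (29.1%), in 0.602% of amacrine cells and in 63.5% of starburst amacrine cells. Horizontal cells held 44.0% of the Onecut3 UMIs of the series and 22.4% of its Lhx1 UMIs, but 0.386% of its Onecut2 UMIs.

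**Figure D1:**
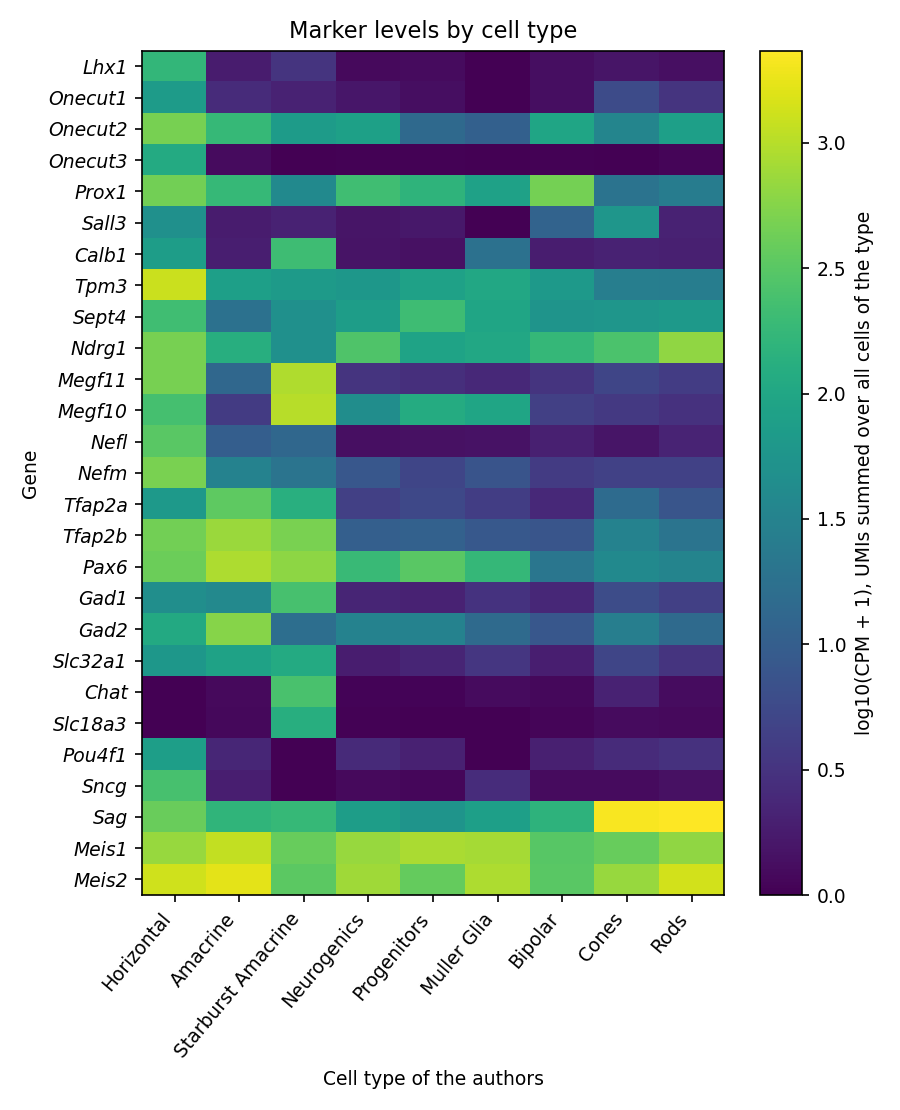
Level of 27 genes (rows) in the 9 cell types of the authors (columns) as log10(CPM + 1), where CPM is UMIs per 1000000 UMIs, summed here over all cells of a type; no error is drawn. Lhx1, Onecut1 and Onecut3 were highest in horizontal cells, Megf10, Megf11 and Calb1 were higher in starburst amacrine cells, and Pou4f1 and Sncg were also high in the horizontal column.

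Not every cell carried the markers. Of the 4 markers, 8 cells had none, 17 had 1, 16 had 2, 9 had 3 and 5 had all 4. A UMI of Lhx1 together with one of Onecut1, Onecut2 or Onecut3 was found in 25 horizontal cells (45.5%), 48 amacrine cells (0.354%) and 115 cells of the whole series. The 10 horizontal cells with no UMI of Lhx1 or of the 3 Onecut genes had a median of 3775.5 UMIs, from 536 to 19002, against 5191 in the cells that had one. Among the 10 were the 3 cells with Pou4f UMIs described further on, which had 19002, 15246 and 9573 UMIs. Whether depth accounts for the missing markers was not tested.

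Lhx1 and the long non-coding RNA Lhx1os lie head to head on chromosome 11, and both were among the genes that set horizontal cells apart most. In GENCODE vM21 (mm10) Lhx1 spans chr11:84518284-84525535 on the minus strand and Lhx1os chr11:84525660-84535831 on the plus strand, so that 125 bases separate their starts and their bodies do not overlap. Their RefSeq promoter windows (250 bases before to 50 after the start, build GRCm38.p6) share 225 bases. The windows of Lhx1 (chr11:84525485-84525784, minus strand), of Onecut1 (chr9:74861671-74861970, plus strand) and of Tpm3 (chr3:90072401-90072700, plus strand; the window of 2 in the table that lies at the gene's outer start) are shown as the start regions of 2 defining factors and of the structural gene found in most horizontal cells, 5′ to 3′ along the gene, with capitals marking ATTGAT on either strand, a core that Onecut proteins are known to bind.
Lhx1: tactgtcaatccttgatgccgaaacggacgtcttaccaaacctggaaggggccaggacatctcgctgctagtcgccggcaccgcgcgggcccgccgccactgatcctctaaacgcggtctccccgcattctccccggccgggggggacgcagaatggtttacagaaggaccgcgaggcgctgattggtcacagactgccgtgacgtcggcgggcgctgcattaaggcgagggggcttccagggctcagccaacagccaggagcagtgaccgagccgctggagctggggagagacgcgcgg
Onecut1: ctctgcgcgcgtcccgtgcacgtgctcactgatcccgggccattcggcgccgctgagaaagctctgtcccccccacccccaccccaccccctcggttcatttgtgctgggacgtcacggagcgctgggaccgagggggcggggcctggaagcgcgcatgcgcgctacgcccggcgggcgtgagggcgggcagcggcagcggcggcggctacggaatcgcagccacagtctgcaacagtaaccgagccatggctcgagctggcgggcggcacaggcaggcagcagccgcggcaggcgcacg
Tpm3: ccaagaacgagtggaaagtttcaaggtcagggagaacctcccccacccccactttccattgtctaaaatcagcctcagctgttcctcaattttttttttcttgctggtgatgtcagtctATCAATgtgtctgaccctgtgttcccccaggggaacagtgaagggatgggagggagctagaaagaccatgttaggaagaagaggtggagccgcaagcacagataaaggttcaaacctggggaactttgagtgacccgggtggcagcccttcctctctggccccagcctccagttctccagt
The 6 letters occurred once, in the Tpm3 window, and in neither of the others. Among promoters in the RefSeq table, 2477 of 32851 (7.54%) held the motif. The same held for 192 of 4934 promoters (3.89%) of the genes considered here, 12 of 170 promoters (7.06%) of the genes that were higher in horizontal cells and 6 of 128 promoters (4.69%) of those that were lower.

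To describe the whole profile, the UMIs of each gene summed over horizontal cells were divided by the number expected if each library's horizontal UMIs had the composition of that library's amacrine cells. A gene was considered with at least 20 observed or expected UMIs and counted as higher or lower at a ratio of at least 4, or at most 0.25, with the exact Poisson 95% interval on the same side of 1. These intervals cover counting error only. Of 4768 genes, 181 (3.8%) were higher and 116 (2.43%) lower in horizontal than in amacrine cells, and the median log2 ratio of all 4768 was -0.08. Because the names come from the same counts, these shares are a description. Of the 181 higher genes, 160 had a ratio above 1 in P2 control 1, in P2 control 2 and in the other libraries together, and 151 had a ratio of at least 2 in all of these. Of the 116 lower genes, 114 were below 1 in all of them. The genes were called from the sum of these same sets, so this agreement is not independent of the call. Without P2 control 1, 3477 genes could be considered, of which 115 were higher (111 of them among the 181) and 129 lower. Of the genes described below, Gap43 (2.25), Cdh4 (3.57), Kirrel3 (0.267) and Nr2f1 (0.271) were then within 4-fold, and Onecut1 (34.96), Sall3 (45.1), Isl1 (6.89), Slc17a6 (313), Siah3 (29.9), Slit3 (39.9) and Neurog2 (0.126) kept a 4-fold ratio but had fewer than 20 observed and expected UMIs. Without P2 control 2, Cdh4 (3.72) and Kirrel3 (0.255) were within 4-fold and Sall3 (64.8) had fewer than 20 UMIs.

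**Figure D2:**
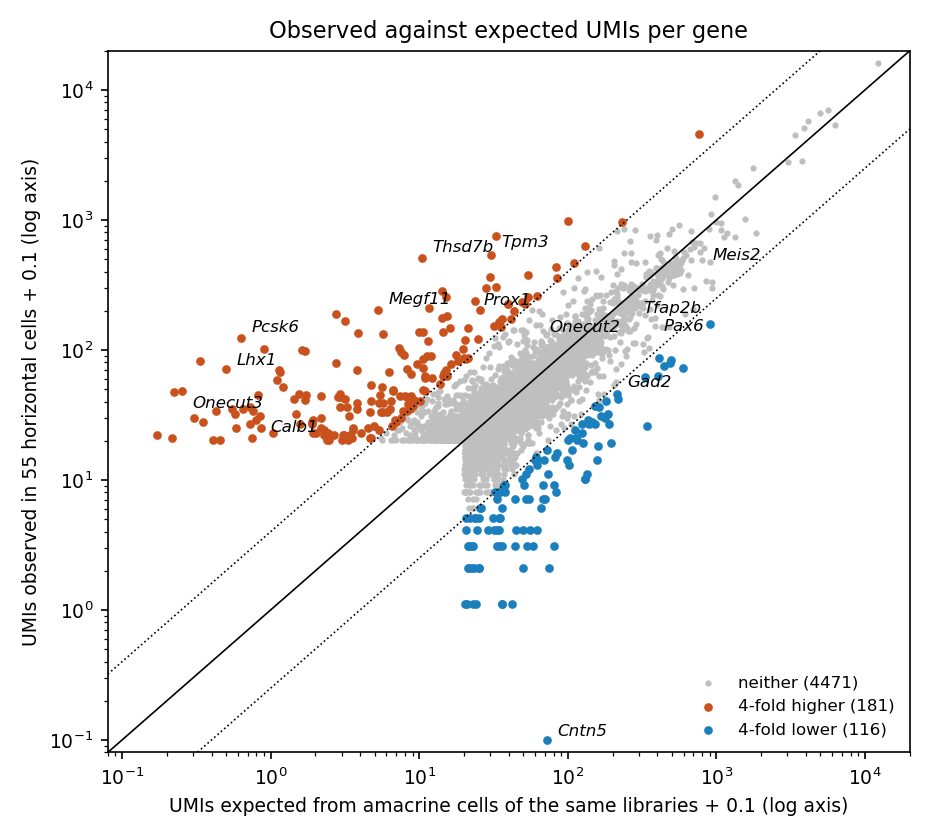
UMIs observed in the 55 horizontal cells (vertical, log axis) against UMIs expected from amacrine cells of the same libraries (horizontal, log axis), with 0.1 added, 1 point per gene; the solid line marks equality and the dotted lines a 4-fold difference. The 181 higher genes include Lhx1, Pcsk6, Thsd7b and Tpm3, the 116 lower genes include Gad2 and Cntn5, and Onecut2, Prox1, Tfap2b and Pax6 lie between the dotted lines.

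Transcription factors known from horizontal cell development came first. Of the 12 listed, 11 could be considered, 5 were higher (Lhx1, Onecut1, Onecut3, Sall3 and Isl1) and 2 lower (Tfap2a and Ptf1a), beside 3.8% higher and 2.43% lower over all genes. The median log2 ratio was 1.63 against -0.08 over all genes. Isl1 counts among the 5 only through the 3 Pou4f cells described further on, which held 44 of its 45 UMIs. Lhx1 was at 227, 211, 41.2 and 453 CPM in the horizontal cells of P2 control 1 to 4 and at 114 and 810 CPM in those of P5 control 1 and 2, while amacrine cells of the 14 libraries ranged from 0 to 2.23 CPM. All 6 control libraries with a horizontal cell were thus above all amacrine values. With so few horizontal UMIs per library, any single Lhx1 UMI gives a level above that range. The comparison therefore shows only that each of these libraries had at least 1 UMI. The level in P2 control 3 was 1 UMI, and P2 control 4 and P5 control 2 held 1 horizontal cell each. In MEIS libraries Lhx1 was at 589 CPM in P2 MEIS1 1, 333 in P2 combination 1 and 63.7 in P5 MEIS1 1. It was at 0 in P2 MEIS2 1, P2 MEIS2 2, P2 combination 2, P5 MEIS1 2 and P5 combination 1. Horizontal cells were above amacrine cells in 9 of 14 libraries, which were the 9 where they had an Lhx1 UMI. Summed over libraries, 71 Lhx1 UMIs were observed where 0.398 were expected, a ratio of 178 (interval 139 to 225). Onecut3 had 48 UMIs where 0.151 were expected, Onecut1 29 where 0.700 were expected (ratio 41.5), and Sall3, a zinc finger factor also known from cones, 20 where 0.306 were expected (ratio 65.3). For genes with fewer than 1 expected UMI the ratio has a very small denominator and shows mainly that amacrine cells had almost none.

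Factors that horizontal and amacrine cells are both known to use differed less. Prox1, a homeodomain factor that horizontal cells keep as adults, had 190 UMIs in 40 cells, a ratio of 2.83 (2.44 to 3.27). Its level was 450 CPM in horizontal cells and 459 CPM in bipolar cells. Onecut2 had 198 UMIs, a ratio of 3.12 (2.70 to 3.58). Prox1 and Onecut2 were both below the 4-fold rule. Tfap2b, an AP-2 factor of both types, stood at a ratio of 0.722 (0.623 to 0.832), and Pax6 at 0.476 (0.408 to 0.553). Its relative Tfap2a was lower, with 27 UMIs against 124.7 expected (ratio 0.216). Ptf1a, which progenitors use transiently on the way to both fates, had 6 UMIs in 2 cells against 65.7 expected. Of these, 5 lay in P2 control 1, where the ratio was 0.369, and without that library it was 0.0192. Foxn4 had no UMI against 0.211 expected, which is too few to compare. Isl1, a LIM homeodomain factor of ganglion, starburst and bipolar cells, passed the rule with 45 UMIs, but these came from 4 cells.

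Some genes of horizontal cell differentiation were high as well. In the list for differentiation, 5 of 11 genes considered were higher (Calb1, Sept4, Tpm3, Nefl and Nefm) and Gad2 was lower, beside 3.8% higher and 2.43% lower over all genes. The list's median log2 ratio was 1.81. Tpm3, a tropomyosin of the actin cytoskeleton, was the most widespread: 52 of 55 cells had it, at 1263 CPM, and its 533 UMIs were 17.5 times the 30.4 expected. Tpm3 was above amacrine cells in 12 of 14 libraries, with a lowest, median and highest level of 51.9, 1253 and 5076 CPM against 47.0, 69.5 and 83.2 CPM in amacrine cells. Mouse Tpm3 has near-identical copies elsewhere in the genome, so its counts may be split or merged. Sept4, a septin, had a ratio of 11.8 (9.48 to 14.5) to amacrine cells, but progenitors were at 208 CPM against 216 CPM in horizontal cells. Ndrg1, a stress-response protein used as a horizontal cell marker, had a ratio of 3.54, although its CPM was higher in rods, at 635 against 478. Calb1 had 31 UMIs where 0.746 were expected (ratio 41.6).

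Neurofilament genes were also high, with an uneven spread over cells. Nefl, the light neurofilament, had 135 UMIs in 31 cells against 3.78 expected (ratio 35.7), and Nefm, the medium one, 208 in 30 cells against 11.6 expected (ratio 17.97). Without P2 control 1 these ratios were 24.0 and 8.96. The annotated bodies of Nefl and Nefm overlap on opposite strands, and whether counting used strand is not given in the sources used here. Of the Nefl and Nefm UMIs, 66.7% and 71.6% came from the 8 cells that had at least 3 UMIs of ganglion cell markers. These core markers were Pou4f1, Pou4f2, Pou4f3, Rbpms, Sncg, Slc17a6 and Thy1. The limit of 3 UMIs was not adjusted for depth, and the 8 cells held 30.5% of all UMIs of the cluster. Without these 8 cells the ratios were 16.4 and 6.81. Of these 8 cells 5 carried Lhx1 or Onecut3, and 1 cell of P2 control 1 and 1 of P2 control 4, each with all 4 horizontal markers and no Pou4f UMI, held 31 and 24 Nefl and 83 and 31 Nefm UMIs. The 3 cells with Pou4f UMIs and no Onecut or Lhx1 UMI held 28 Nefl and 27 Nefm UMIs. Nefh, the heavy subunit, had 3 UMIs. Dcx, a microtubule protein of young neurons, was found in 44 cells at a ratio of 16.9 (14.9 to 19.1), and Gap43, a growth cone protein, in 22 cells at a ratio of 7.90. Gap43 rested on P2 control 1: without that library the ratio was 2.25 (1.60 to 3.08), and 162 of its 201 UMIs lay in the 3 cells with Pou4f UMIs described further on. Stmn2, another growth cone gene, had a ratio of 2.62 and Tubb3 one of 0.876 (0.759 to 1.01).

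Genes outside the horizontal lists with the firmest ratios made up a second group, named by the rule in the processing notes. Pcsk6, a proprotein convertase, had 123 UMIs in 36 cells where 0.535 were expected (ratio 230, interval 191 to 274). Its level was 242, 369, 41.2 and 302 CPM in P2 control 1 to 4 and 621 and 405 CPM in P5 control 1 and 2, and amacrine cells did not exceed 11.4 CPM in any of the 14 libraries. In MEIS libraries it ranged from 0 to 1050 CPM, with 0 in P2 MEIS2 1, P5 MEIS1 2 and P5 combination 1. Horizontal cells were above amacrine cells in 11 of 14 libraries, which were the 11 where they had a Pcsk6 UMI. Thsd7b, a thrombospondin-domain membrane protein, was the most abundant of the group, with 506 UMIs in 43 cells against 10.4 expected (ratio 48.8). P3h2, an enzyme that hydroxylates proline in collagen, had 166 UMIs in 31 cells (ratio 54.3), but bipolar cells also expressed it, at 150 CPM against 393 CPM in horizontal cells. Lhx1os had 82 UMIs in 24 cells against 0.233 expected, and Pmfbp1 47 UMIs in 15 cells against 0.123 expected.

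The same rule named 15 further genes of varied roles. Esrrb, an orphan nuclear receptor, had 30 UMIs in 21 cells. Rasgrp1, a Ras activator, had 28 UMIs in 18 cells, and Prkg2, a cyclic GMP-dependent kinase, had 34 in 21 cells. The other genes were Slc17a6, Fam46a, Megf10, Chst8, Plekhd1, Lama3, Syt2, Strip2, Megf11, Siah3, Slit3 and Fam124a, with ratios from 29.9 (Fam124a) to 307 (Slc17a6). Slc17a6 encodes the vesicular glutamate transporter VGLUT2, a marker of ganglion cells in the retina, and had 22 UMIs in 10 cells. Of these, 15 lay in the 8 cells with at least 3 UMIs of ganglion markers, 8 of them in the 3 Pou4f cells described further on. Slc17a6 is itself 1 of the markers that picked the 8 cells. Its share in them, and the ratio of 177 without them, follow in part from that choice. A cell of P5 control 1 with all 4 horizontal markers was picked only through its 3 Slc17a6 UMIs. Lama3 encodes a laminin chain and Slit3 a guidance ligand, with 59 and 27 UMIs. Across the 9 cell types, the genes whose log2(CPM + 1) followed Lhx1 most closely were Prkg2 (Pearson r 0.989), Rasgrp1 (0.988), Gm12082 (0.985), Gm48091 (0.984) and Onecut3 (0.978). These r values are descriptions over 9 points in which the horizontal column carries most of the pattern.

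The mosaic spacing genes Megf10 and Megf11 were far above the level of amacrine cells but below that of starburst amacrine cells. These receptors for like-type spacing of horizontal and starburst cells had 98 UMIs in 36 cells and 203 UMIs in 38 cells, ratios of 60.9 and 39.2 against amacrine cells. Against starburst cells of the same libraries the ratios were 0.254 and 0.698, with intervals that lay below 1, and Calb1 was at 0.482. Of the 9 starburst genes listed, 3 could be considered and all 3 were higher than in amacrine cells (Megf10, Isl1 and Ache), beside 3.8% of all genes. Of the 45 Isl1 UMIs, 44 came from the 3 cells with Pou4f UMIs described further on. Ache, which breaks down acetylcholine, had 28 UMIs in 13 cells, a ratio of 15.7 to amacrine and of 2.61 to starburst cells. Another 5, Chat, Slc18a3, Slc5a7, Fezf1 and Slc35d3, had no UMI in any horizontal cell; Chat makes acetylcholine and Slc18a3 loads it into vesicles. With 422159 UMIs, 0 UMIs allow a count of up to 3 for a gene.

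Of 20 adhesion and spacing genes that could be considered, 5 were higher and 4 lower, beside 3.8% and 2.43% over all genes, with a median log2 ratio of -0.06 against -0.08 over all genes. Higher besides the 2 Megf genes were Plxna4 (ratio 10.8), a semaphorin receptor, Sdk2 (13.1), an immunoglobulin adhesion molecule, and Cdh4 (4.22), a cadherin. Lower were Dscam (0.143), Lrrc4c (0.186), Kirrel3 (0.222) and Ncam2 (0.129). Lrrc4c was at 1.29 in P2 control 1 and 0.0792 in the libraries other than P2 control 1 and 2, so its low value did not hold in every set.

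Inhibitory transmitter genes were mixed. Of 6 genes for GABA and glycine considered, 2 were lower, Gad2 among them, beside 2.43% of all genes. None was higher, beside 3.8% of all genes, from which nothing is read. The list had a median log2 ratio of -0.87. Gad2, which makes GABA, had 46 UMIs in 17 cells against 213.1 expected (ratio 0.216, interval 0.158 to 0.288). Its ratio was 0.367 in P2 control 1, 0.444 in P2 control 2 and 0.0912 in the other libraries. Gad1, the other GABA-synthesising enzyme, had 19 UMIs against 24.7 (ratio 0.770, interval 0.463 to 1.20). Slc32a1, which loads GABA into vesicles, had a ratio of 0.623 (0.403 to 0.920) and was found in 18 cells. Abat, which breaks GABA down, was at 1.93 (1.54 to 2.39) in 30 cells.

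No receptor gene passed the 4-fold rule, among 9 ionotropic glutamate receptor genes and 5 GABA or glycine receptor genes considered. Over all genes 3.8% were higher and 2.43% lower, so nothing is read from these counts of 0. Within the glutamate receptors, Gria3 had a ratio of 2.41 (2.05 to 2.82) and Grik1 3.13 (2.36 to 4.07), while Gria4 was at 0.422 and Grin2b at 0.342. Glra2, a glycine receptor subunit, had 16 UMIs in 11 cells against 61.5 expected (ratio 0.260, interval 0.149 to 0.423), just short of the rule. Gja10, the connexin of horizontal cell gap junctions, had 3 UMIs in 3 cells, a ratio of 52.8 with a counting interval of 10.9 to 154.

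The 10 lower genes named by the rule were low in horizontal cells and several were high in bipolar cells too. Cntn5, a contactin adhesion molecule, had no UMI in any horizontal cell where 72.5 were expected, which is at least 24.2-fold lower with 3 counts over all libraries as the floor. Sphkap had 2 UMIs against 74.5 expected, Adamtsl1 3 against 80.5, and the transcription factors Sox5 11 against 134.3 and Zfhx3 14 against 157.8. Dab1, the adaptor of reelin signalling, had 10 against 129.4 and Cxcl14, a chemokine, 10 against 130.4. Ptprk, Il1rapl2 and Pcdh19 also passed, with ratios of 0.0762, 0.0400 and 0.0513. Of 6 neurogenic genes considered, 3 were lower (Neurog2, Gadd45a and Neurod4, with 2, 9 and 21 UMIs) and none higher. Of 12 early temporal and birth-order factors considered, 3 were higher (Onecut1, Onecut3 and Lhx1) and 2 lower (Zfhx3 and Zfhx4). Over all genes 3.8% were higher and 2.43% lower.

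Cell cycle genes gave 23 UMIs in 12 genes, of which 6, Top2a and Cdk1 among them, had none. Microglia genes gave 2 UMIs in 5 genes, vessel genes 6 UMIs in 5 genes, and the 2 red cell genes in the table none. Markers of other retinal types were present, with 113 UMIs of Müller glia genes against 233.0 expected, 86 of bipolar genes against 75.7 (41 against 74.1 without Isl1), 148 of photoreceptor precursor genes against 276.0 and 66 of cone genes against 126.4. The 10 rod genes gave 478 UMIs against 364.4 expected from amacrine cells, none of the 5 considered passed the rule in either direction, and Gnat1 had no UMI. Beside 3.8% higher and 2.43% lower over all genes, nothing is read from that 0. Single cells of P5 MEIS1 1 and P5 control 1 held 194 and 118 of these rod UMIs. Their part in the profile was not tested.

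The cluster held 2 small sets of cells that differed from the rest in their defining genes, both picked out after their values were seen. In 3 cells, 2 of P2 control 1 and 1 of P2 control 3, UMIs of Pou4f1, Pou4f2 or Pou4f3, factors that define ganglion cells, stood beside none of Lhx1, Onecut1, Onecut2, Onecut3, Prox1, Tfap2b, Megf11 or Pcsk6. Their Pou4f UMIs and their lack of Lhx1 and Onecut UMIs are how these cells were picked. The 3 cells had 19002, 15246 and 9573 UMIs, held 37 of the 38 Pou4f UMIs of the cluster, and carried 75 of its 101 UMIs of Sncg, a synuclein of ganglion cells, and 44 of its 45 Isl1 UMIs. For these 3 cells the label goes against the markers. At the level of the ganglion list, 8 of 9 genes considered were higher in the cluster, beside 3.8% of all genes. Without P2 control 1, Sncg, Nefl and Nefm were still higher by the rule, Rbpms (2.96) and Gap43 (2.25) were within 4-fold, and Pou4f1 (6.09), Isl1 (6.89) and Slc17a6 (313) had too few UMIs to be considered. The list was at 4158 CPM in P2 control 1, 580 CPM in P2 control 2 and 909 CPM in the other libraries. The core ganglion genes had 174 of their 186 UMIs in the 8 cells with at least 3 of them. That share follows in large part from picking the cells by these same genes. No UMI of the core ganglion genes was found in 38 of the 55 cells. Of those 8 cells 5 carried Lhx1 or Onecut3. Without the 8 cells, 133 genes were higher and 104 lower than in amacrine cells, 124 and 81 of them shared with the counts over all cells. Only 3534 genes could then be considered, against 4768 over all cells.

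The second set was 4 cells with more than 500 GFP UMIs, 3 in P2 MEIS2 1 (1606, 1249 and 1427 GFP UMIs) and 1 in P5 combination 1 (566). All other horizontal cells had at most 158. The 3 cells of P2 MEIS2 1 were all the horizontal cells of that library. These 4 cells had 13991 to 20222 UMIs each and no UMI of Lhx1, Onecut1, Onecut3, Calb1, Nefl, Megf11 or Pcsk6. They had 5, 2, 3 and 1 UMIs of Onecut2, 8, 3, 2 and 1 of Prox1 and 1 each of Tpm3, so that the markers most typical of the remaining cells were absent at a depth above the cluster's median of 4886. They also carried 166, 147, 95 and 93 UMIs of Meis2, the gene of a construct given to their libraries. For these 4 cells the label goes against the markers as well. Of the 48 cells in neither set, 43 had a UMI of Lhx1, Onecut1, Onecut3, Pcsk6 or Megf11, and 34 had Lhx1 or Onecut3.

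**Figure D3:**
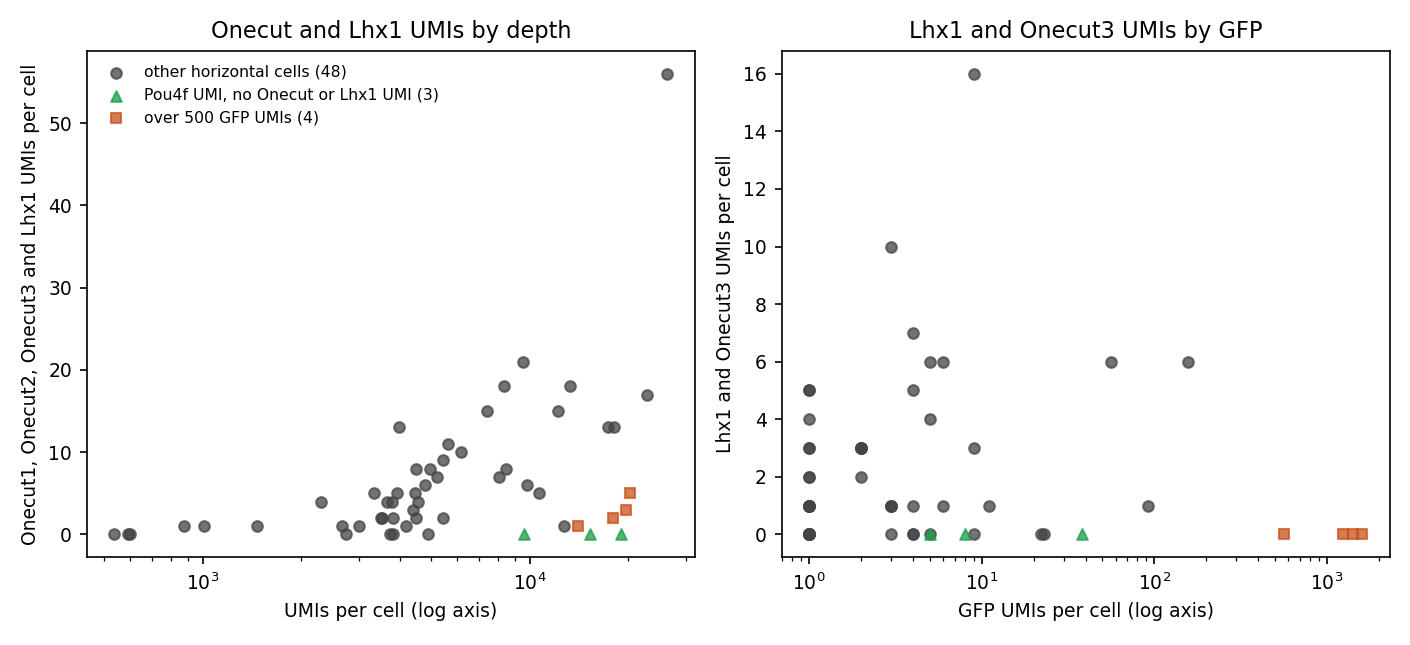
Left, UMIs of Onecut1, Onecut2, Onecut3 and Lhx1 summed per horizontal cell against the cell's UMIs (log axis); right, UMIs of Lhx1 and Onecut3 against GFP UMIs (log axis), 1 point per cell. Triangles mark the 3 cells with a Pou4f UMI, which were picked for having no Onecut or Lhx1 UMI. The 4 cells with over 500 GFP UMIs (squares) had no Lhx1 or Onecut3 UMI at depths of 13991 UMIs or more.

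These 4 cells decided the levels of Meis2 and GFP in the cluster. Over all cells Meis2 had 567 UMIs against 776.6 expected from amacrine cells (ratio 0.730). Without the 4 cells 66 UMIs in 20 cells were left, 35 of them in P2 MEIS2 2, and the ratio was 0.117. In libraries titled as controls, of which P2 control 1 bears a combination library's name in its barcodes, Meis2 was at 106, 105, 206 and 0 CPM in the horizontal cells of P2 control 1 to 4 and at 49.0 and 0 CPM in those of P5 control 1 and 2, against 833 CPM or more in amacrine cells of every library. All these control values lay below the amacrine range. Summed over libraries, Meis1 had 301 UMIs in 48 cells (ratio 0.886, and 0.755 without the 4 cells). The expected value includes amacrine cells of MEIS1 libraries, up to 3676 CPM in P2 MEIS1 1, where horizontal cells were at 523 CPM. Horizontal cells of P2 control 1 to 4 were at 597, 395, 206 and 75.5 CPM, and amacrine cells at 773, 534, 377 and 246 CPM. In P5 control 1 and 2 horizontal cells were at 833 and 202 CPM and amacrine cells at 511 and 208 CPM. The horizontal values of P2 control 4 and P5 control 2 were 1 UMI each. Of the nuclear receptors Nr2f1 and Nr2f2, which the series text names as constructs, Nr2f1 had 8 UMIs against 32.0 expected and Nr2f2 14 against 62.0, and both were lower.

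GFP was low in most horizontal cells. Every deposited cell has at least 1 GFP UMI; 19 of 55 horizontal cells (34.5%) had exactly 1 and 38 (69.1%) at most 5, against 11.9% and 35.1% of amacrine cells in the same libraries. Starburst amacrine cells had 20.8% and 71.9%. The median over cells was 407 CPM of GFP in horizontal cells, 334 in starburst cells, 3364 in amacrine cells and 7504 in progenitors. The median horizontal cell had more GFP than 18.8% of the amacrine cells of its own library, and the horizontal median was below the amacrine median in 10 of 14 libraries. The exceptions were P2 MEIS2 1, P2 MEIS2 2, P5 MEIS1 2 and P5 combination 1, with 1 to 3 horizontal cells each. Whether a single GFP UMI came from the cell or from free RNA was not tested.

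**Figure D4:**
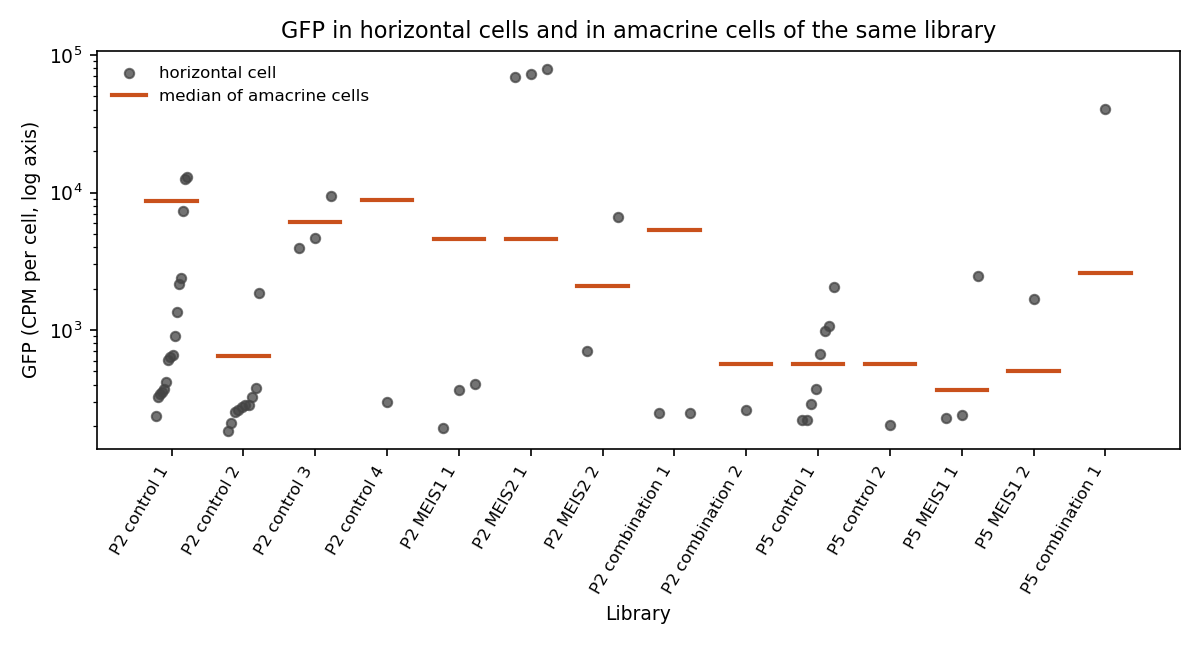
GFP per horizontal cell in CPM (log axis, points) in the 14 libraries with a horizontal cell, beside the median of the amacrine cells of the same library (bars). Most points lie below the bar, and the 3 cells of P2 MEIS2 1 and the cell of P5 combination 1 lie far above theirs.

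The share of horizontal cells was compared between groups over libraries. At P2 it was 0.0902, 0.212, 0.0570 and 0.0249% in control 1 to 4 and 0 to 0.164% in the 6 MEIS libraries, with means of 0.0961% ± 0.0819 (SD, n = 4) and 0.0876% ± 0.0594 (SD, n = 6). The groups overlapped, and the difference of -0.00846 percentage points was within the spread (two-sided exact permutation test over 210 splits, p = 0.867, adjusted p = 0.867 over 3 tests). At P5 the shares were 0.127, 0.0253, 0 and 0% in control 1 to 4 and 0 to 0.120% in MEIS libraries, with means of 0.0381% ± 0.0605 (SD, n = 4) and 0.0309% ± 0.0468 (SD, n = 6; exact permutation p = 0.762, adjusted p = 0.867). P5 control libraries were lower than P2 control libraries on average, by 0.0580 percentage points, with overlapping values (exact permutation p = 0.343, adjusted p = 0.867, where 4 against 4 libraries cannot go below 0.0286). Both directions of the MEIS comparisons turned when 1 library was left out: without P2 control 2 the P2 difference was 0.0303, without P2 MEIS1 2 it was 0.00906, and without P5 control 1 the P5 difference was 0.0225.

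Counts this small limit what could be seen. A library's share rested on at most 16 cells: P2 control 1 had an exact 95% interval of 0.0516 to 0.146%, and in the libraries with no horizontal cell the exact upper bound ranged from 0.0644% (P5 control 3) to 0.190% (P5 MEIS2 2). With 3 counts as the limit of a 0, these libraries allow 0.0524% and 0.154%. Over the 16 horizontal cells in MEIS libraries Lhx1, Pcsk6 and Tpm3 were at 101, 216 and 843 CPM, beside 217, 246 and 1271 CPM over the 30 cells of P2 controls. Without the 4 cells with high GFP and the 3 Pou4f cells, the levels were 196, 419 and 1583 CPM over 12 cells and 275, 311 and 1568 CPM over 27 cells. P5 controls, with none of these 7 cells, were at 166, 605 and 2177 CPM over 9 cells. The MEIS cells pool 11 of P2 and 5 of P5, so neither control sum matches their age. These sums come from few cells and were not tested.

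**Figure D5:**
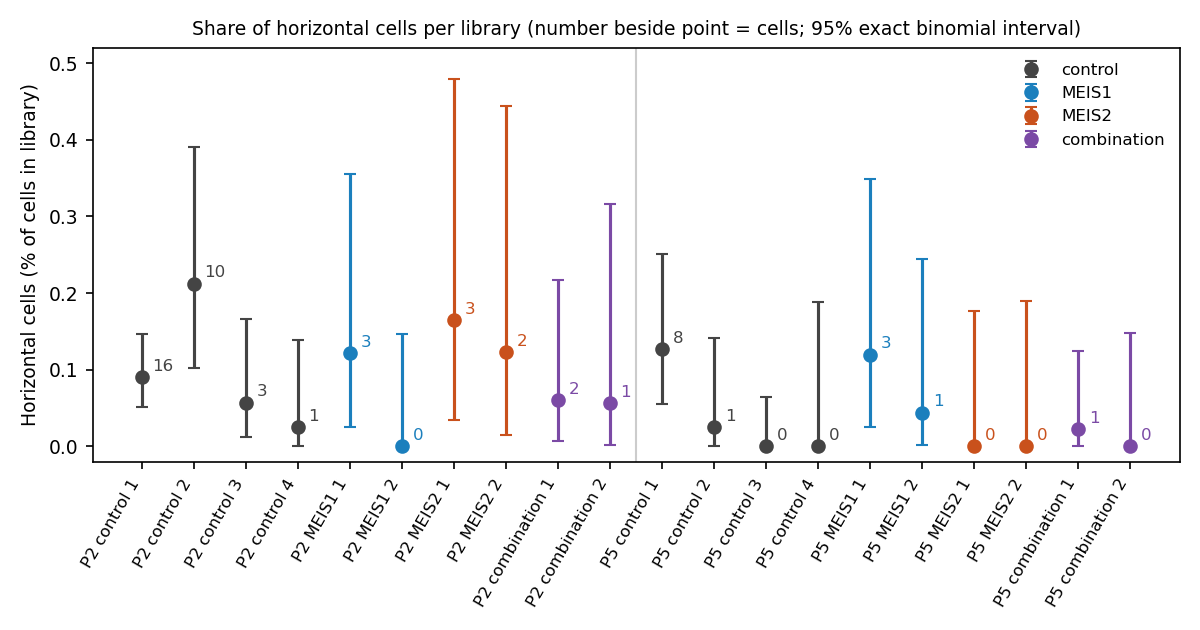
Horizontal cells as a percent of the cells of each of the 20 libraries (points, with the number of horizontal cells beside them) and exact 95% binomial intervals (bars, counting error only), coloured by construct and split at the line into P2 and P5. Intervals overlap between controls and MEIS libraries at each age, and 6 libraries hold no horizontal cell.

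P2 and P5 control cells could be set side by side only as sums, since 8 of the 9 P5 control cells came from P5 control 1. Stmn2 was at 1565, 659, 2842 and 2189 CPM in P2 control 1 to 4 and at 212 and 202 CPM in P5 control 1 and 2. Nefm was at 1036, 237, 330 and 2340 CPM in the former and at 180 and 202 CPM in the latter. As sums over the P2 and over the P5 control cells, Stmn2 was at 1589 and 212 CPM and Nefm at 891 and 181 CPM. The sums of Lhx1, at 217 and 166 CPM, and of Onecut3, at 130 and 151 CPM, lay closer together. By library they did not: Lhx1 was at 227, 211, 41.2 and 453 CPM in P2 control 1 to 4 and at 114 and 810 CPM in P5 control 1 and 2. Onecut3 was at 144, 185, 0 and 75.5 CPM in the former and at 147 and 202 CPM in the latter. The 8 cells with at least 3 ganglion marker UMIs held 259 of 405 Stmn2 and 149 of 208 Nefm UMIs, beside 30.5% of all UMIs. Of the 8, 6 were P2 control cells and 5 carried Lhx1 or Onecut3. Their part in the difference was not tested. Without these 8 cells Stmn2 was at 690 CPM in P2 and 195 CPM in P5 controls, and Nefm at 375 and 163 CPM. Without the 3 Pou4f cells alone, which held 180 Stmn2 and 27 Nefm UMIs, Stmn2 was at 915 and 212 CPM and Nefm at 964 and 181 CPM. Stmn2 and Nefm were picked with their values in view, and this comparison, which rests on 2 P5 libraries, was not tested.

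The difference in UMIs per cell between horizontal and amacrine cells was within the spread between libraries, whereas the share of mitochondrial UMIs was higher. The log2 ratio of median UMIs per cell averaged -0.13 ± 1.56 (SD, n = 14 libraries; two-sided exact sign-flip permutation test, p = 0.762, adjusted p = 0.762 over 2 tests). Mitochondrial genes took a median of 9.56% of UMIs in horizontal cells, from 0.334 to 24.7%, and the median exceeded that of amacrine cells of the same library in 9 of 14 libraries, by 3.86 percentage points on average ± 5.74 (SD, n = 14; exact permutation p = 0.0232, adjusted p = 0.0464). By the same exact permutation test, that call was lost in libraries with at least 3 horizontal cells (1.82 points, adjusted p = 0.469), without P2 control 1 (4.07 points, adjusted p = 0.0596), without P2 control 2 (3.69 points, adjusted p = 0.0928) and without the 4 cells with high GFP (4.41 points, adjusted p = 0.0586). Starburst amacrine cells had a median of 14.6% over all libraries, amacrine cells 4.13% and cones 8.31%. These medians pool libraries that differ: amacrine cells were at 15.2% in P5 control 1 and 4.03% in P2 control 1. P5 control 1 held 26 of the 98 starburst cells and 866 of the 13556 amacrine cells, so library and type are mixed here.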

How the data were processed

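RNA was measured in single cells with 10x Genomics 3′ libraries. The authors deposited whole-number UMI counts for each gene in each cell, without normalization, together with each cell's library, cell type and mitochondrial percent. Per the submitters' processing notes, Cell Ranger, Seurat 5 and mm10 were used; the series text adds a GFP locus. Filters are not given in the sources used here, though every deposited cell has 501 to 46192 UMIs and at least 1 GFP UMI.

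From these counts, sums over horizontal cells were compared with amacrine cells of the same libraries (Python 3.11.15, numpy 2.4.6, scipy 1.17.1), as a ratio of observed to expected UMIs with exact Poisson 95% intervals. The script was tested on simulated data. Shares and per-cell medians were tested with exact permutations over libraries and Benjamini-Hochberg adjustment (threshold 0.05). Scrublet (scanpy 1.11.5, expected 6% doublets) marked 3 horizontal cells; it marked under 0.5% of the cells in 7 libraries and did not work there, so doublets were kept. The members and gene lists were chosen with earlier results of these data known. Named genes were those of the horizontal lists, up to 20 higher and 10 lower genes with the firmest interval, UMIs in at least 10 cells (higher genes) and a ratio of at least 2 or at most 0.5 in P2 control 1, P2 control 2 and the other libraries (leaving out mitochondrial, ribosomal and unnamed gene models), 5 genes most like Lhx1 with at least 20 UMIs, and Meis1, Meis2, GFP, Nr2f1, Nr2f2 and Pax6. Further genes of the other lists were picked with their values in view. Hbb-bs and Hbb-bt were not in the table. Some listed genes are not reported here. The labels do not say that equal replicate numbers share an animal or batch.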

Additional observations from a re-analysis of the deposited data

How the results depend on the processing

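Shares, profile counts and cell measures were recomputed under other processing choices, some of them added after the data were seen. With the replicate block, which compares libraries of the same number, differences were -0.0636 (P2), -0.0453 (P5) and -0.0580 (P5 against P2 controls) percentage points, with exact p = 0.3125, 0.3125 and 0.375; the numbers are uncertain because barcodes start with other names. Leaving out each library gave -0.0322 to 0.0303 at P2, -0.0249 to 0.0225 at P5, and -0.0877 to -0.0193 between control ages, and no share test passed the threshold under any choice run. The MEIS difference turned positive at P5 among amacrine, starburst and horizontal cells (0.123), at both ages with cells of any type that had Lhx1 and a Onecut gene (0.0697 and 0.0812), and at P2 with groups from the barcode start (0.00547) or without P2 MEIS1 2 (0.00906). The log2 ratio of UMIs turned positive in libraries with at least 3 horizontal cells (0.048) and against all other cells (0.081). The mitochondrial difference passed no threshold in those libraries (1.82), without P2 control 1 (4.07), without P2 control 2 (3.69) and without the cells with high GFP (4.41).

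Against amacrine cells, the higher genes numbered 115 of 3477 considered without P2 control 1, 163 of 4411 without P2 control 2 and 86 of 1899 with at least 50 UMIs. The lower ones numbered 183 of 7458 with at least 10 UMIs and 67 of 1899 with at least 50. Both the minimum and leaving out a library change how many genes are considered. With rods as reference 555 of 5071 genes considered were higher and 258 lower. With starburst cells as reference 248 of 4625 were higher and 185 lower. Of the 116 genes lower than in amacrine cells, 8 were also lower than in rods and 21 than in starburst cells. Beside 258 of 5071 genes lower than in rods, nothing is read from the 8. Against starburst cells the ratio turned for Megf10 (0.254), Megf11 (0.698), Calb1 (0.482), Isl1 (0.128), Ptprk (2.58), Cxcl14 (3.33), Ptf1a (13.8) and Gad2 (8.29). Against rods the ratio turned for Adamtsl1 (1.10), Ptprk (2.44), Cxcl14 (2.07), Dab1 (1.14), Zfhx3 (1.36), Ptf1a (12.5), Gad2 (5.34), Tfap2a (5.94) and Nr2f2 (1.08). Horizontal cells had only 3 UMIs of Adamtsl1, 6 of Ptf1a, 10 each of Cxcl14 and Dab1 and 14 each of Zfhx3 and Nr2f2. The cause of these shifts was not tested. Depth limits every value to 55 cells.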

Other observations

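Cells with an Lhx1 UMI together with one of Onecut1, Onecut2 or Onecut3 were more often named amacrine (48) than horizontal (25), among 13556 and 55 cells; the pair was found in 0.354% of amacrine cells, 45.5% of horizontal cells and 2.04% of starburst amacrine cells. In 15 rods, 12 neurogenic cells, 7 bipolar cells and 6 progenitors the pair was found as well, and in no cone or Müller glia cell. P2 control 1 held 32 such cells, 10 of them named horizontal, P2 MEIS1 1 held 12, of which 2 were named horizontal, and P5 MEIS2 2, which had no cell named horizontal, held 6.

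Calb2, the calcium-binding protein calretinin, had 46 UMIs in 5 horizontal cells and a ratio of 1.05 to amacrine cells; without the 8 cells that had at least 3 UMIs of ganglion markers the ratio was 0.0659.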
